A study of Mus musculus with 29 samples.

Results

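Genes of the olfactory and vomeronasal receptor families were described in libraries made from reporter-positive neurons of the mouse amygdala and medial prefrontal cortex. The genes were chosen by symbol, as every row whose symbol begins with Olfr, Vmn1r or Vmn2r followed by a digit, and the families themselves were picked on earlier results of these libraries, so that the counts below describe the data and are no independent evidence. There were 124 such genes among 9872 in the amygdala (77 Olfr, 23 Vmn1r and 24 Vmn2r) and 36 among 6080 in the prefrontal cortex (16 Olfr, 10 Vmn1r and 10 Vmn2r). Over both regions 136 of 10678 genes were receptor genes, 24 of them with values in both, 100 in the amygdala alone and 12 in prefrontal cortex alone.

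All groups were B6.Cg-Tg(Thy1-YFP)HJrs/J mice, in which the Thy1 promoter drives a yellow fluorescent protein in a subset of projection neurons. Their libraries fell into 4 groups per region, Sus-T with trauma (4 amygdala and 4 prefrontal libraries), Res-T with trauma (4 and 3), Sus-T without trauma (2 and 2) and Res-T without trauma (3 and 4). The labels do not define Sus-T, Res-T or the trauma, and they do not say whether each library came from a separate mouse. With 9 amygdala mice in the design text and 13 amygdala libraries, p-values measure the spread between libraries, which may be technical or shared by an animal. Neurons were sorted from dissociated tissue punches, and libraries were made from very small amounts of total RNA after removal of ribosomal RNA.

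Olfactory receptors (Olfr) and vomeronasal receptors of type 1 (Vmn1r) and type 2 (Vmn2r) are G protein-coupled receptors that detect odours and pheromones in sensory neurons of the nose and the vomeronasal organ. Each olfactory sensory neuron usually expresses a single Olfr gene, which signals through the G protein subunit Gnal, the cyclase Adcy3 and a cyclic nucleotide-gated channel, while vomeronasal neurons signal through Gnai2 or Gnao1 and the channel Trpc2. Some receptor genes of these families have also been found transcribed at low levels outside the nose, the brain included.

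Values are the authors' normalized values in arbitrary units, with library totals between 3267967 and 4021272 in the amygdala and between 2095138 and 2444486 in prefrontal cortex. Read depth is unknown. On a log2(value - 1) scale the 13 libraries of a region spanned fewer dimensions than they could, by 1 in the amygdala and by 2 in the prefrontal cortex, which can shrink the spread that the tests use and lower their p-values. In the amygdala the Res-T libraries without trauma stood apart, with weights of at most 0.0002 in the missing dimension, against 0.0074 to 0.273 in the other libraries. In the prefrontal cortex Res-T replicate 1 with trauma stood apart, with a weight of 0.731 in the missing dimensions, against 0.0423 to 0.264 in the other libraries. Of 9 pyramidal neuron markers only Camk2a, Nrgn and Camk2n1 had a row in the amygdala and 0 in prefrontal cortex, while 12 of 12 and 8 of 12 oligodendrocyte markers did. The oligodendrocyte markers summed to between 1.79 and 6.52% of a library in the amygdala and between 2.27 and 7.89% in the prefrontal cortex. In the prefrontal table the defining pyramidal markers, Slc17a7 and Camk2a among them, were thus not available to check the labelled cell type.

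A small share of the annotated receptor genes had a row, and mainly the genes with long exons. GENCODE M21 lists 1738 receptor genes, and 7.14% of them had a row in the amygdala and 2.07% in prefrontal cortex, against 46.6% and 29.0% of the other protein-coding genes. By class the shares were 19.8% of Vmn2r, 10.9% of Vmn1r and 5.47% of Olfr genes in the amygdala, and 8.26%, 4.76% and 1.14% in the prefrontal cortex. By length, the amygdala share of protein-coding receptor genes was 0.270% up to 2 kb of exon and 3.95% at 2 to 4 kb. It was 16.3% at 4 to 8 kb and 36.2% above 8 kb. The share of other protein-coding genes rose with length too, at 15.3, 41.8, 63.7 and 78.9% in the same classes. Protein-coding receptor genes thus lay below other protein-coding genes in every length class of both regions.

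**Figure D1:**
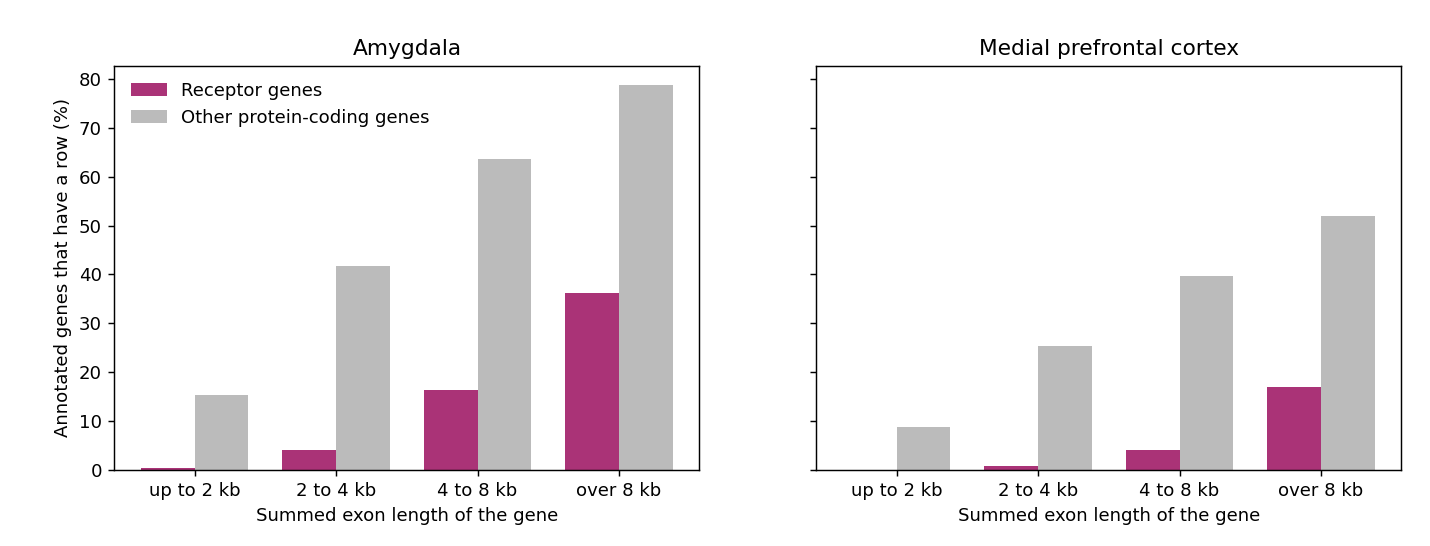
Share of annotated genes that had a row (y axis, percent), by the summed exon length of the gene (x axis), for receptor genes and for other protein-coding genes in each region. Receptor genes here are those typed as protein coding. Their amygdala share is 36.2% above 8 kb, against 78.9% of other protein-coding genes.

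The measured receptor genes had long exons outside the coding sequence and shared much sequence with other genes. Their median exon length was 5772 bases, with separate medians of 942 coding and 4804 other bases. The same medians were 2586, 936 and 1566 bases in the 1602 annotated receptor genes without a row. A median of 17.2% of their exonic 31-mers (stretches of 31 bases on either strand) also occurred in another gene, against 1.65% for the other measured protein-coding genes, and a median of 3.79% occurred in at least 10 other genes, against 0%. For sequence found in any other gene, receptor genes without a row had a median of 10.4%. By class the medians without and with a row were 7.85 and 16.9% for Olfr. They were 26.2 and 13.6% for Vmn1r, and 33.7 and 21.9% for Vmn2r. For 4 measured receptor genes the shared part was more than 50%, namely 79.9% in Vmn2r29, 67.0% in Vmn2r7, 58.6% in Vmn1r207-ps and 53.5% in Olfr715b. A quantifier may divide reads among genes with such sequence, so the values of these genes are uncertain.

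Exons of 17 of the 136 receptor genes overlapped exons of another gene model, 10 of them on the same strand and 11 with a gene that is no receptor. These genes were Olfr287, Olfr374, Olfr432, Olfr539, Olfr639, Olfr715, Olfr1238, Vmn1r43, Vmn1r55, Vmn1r88, Vmn1r183, Vmn1r203, Vmn1r217, Vmn2r7, Vmn2r24, Vmn2r29 and Vmn2r60. The overlap was longest between Vmn1r217 and Vmn1r216, at 3633 bases on the opposite strand, and shortest between Vmn1r55 and Gm47692, at 66 bases on the same strand. Reads within bases shared on the same strand cannot be told apart by strand. For overlaps on opposite strands, whether counting used strand is not given in the sources used here. By position, 39 of the 136 genes lay on chromosome 7 (447 annotated), 23 on chromosome 2 (370 annotated) and 18 on chromosome 17 (108 annotated).

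Receptor genes were low for their length, with a few exceptions. The median receptor gene had a mean deposited value of 8.37 per kb of exon in the amygdala, against 30.4 over all genes, and 10.1 per kb in the prefrontal cortex, against 33.1. The type 2 vomeronasal receptors were lowest by the median, at 3.94 per kb in the amygdala and 5.99 per kb in prefrontal cortex. In the amygdala the range of receptor levels was 0.427 per kb in Vmn2r3 to 283 per kb in Olfr774, which has 1429 bases of exon and lay at percentile 96.7 of all genes. In the prefrontal cortex it was 0.598 per kb in Olfr2 to 145 per kb in Olfr986. Not scaled by length, the lowest means were 3.80 in Olfr394, 4.0 in Olfr1106 and 4.88 in Vmn2r18 in the amygdala and 4.03 in Olfr2, 7.13 in Olfr1381 and 7.68 in Vmn2r7 in the prefrontal cortex.

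A handful of genes carried much of the summed receptor value. Vmn2r53, a type 2 vomeronasal receptor on chromosome 7 (12562851 to 12608788, minus strand, GRCm38.p6), held 17.6% of it in the amygdala and 36.1% in prefrontal cortex, and stood at 152 and 135 per kb. In the amygdala Olfr839-ps1 (120 per kb), Olfr46 (117 per kb), Vmn2r114 (60.1 per kb), Olfr639 (133 per kb) and Olfr1307 (53.9 per kb) followed, and these 6 genes held 40.9%. In the prefrontal cortex Olfr46 (111 per kb), Vmn2r114 (50.5 per kb), Olfr1385 (133 per kb), Olfr986 (145 per kb) and Vmn1r76 (37.1 per kb) followed, and these 6 held 72.8%.

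The level per length went with the share of widely shared sequence. Over the 124 amygdala receptor genes the value per kb and the percent of 31-mers in at least 10 other genes had a Spearman rho of 0.605, against -0.101 over 9747 other genes. Over the 36 prefrontal receptor genes the rho was 0.759, against -0.095 over 6044 other genes. Genes are not independent replicates, and these values share libraries and annotation, so they are given as descriptions. Vmn2r29 lay apart, with 33.0% of such 31-mers and 3.92 per kb.

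**Figure D2:**
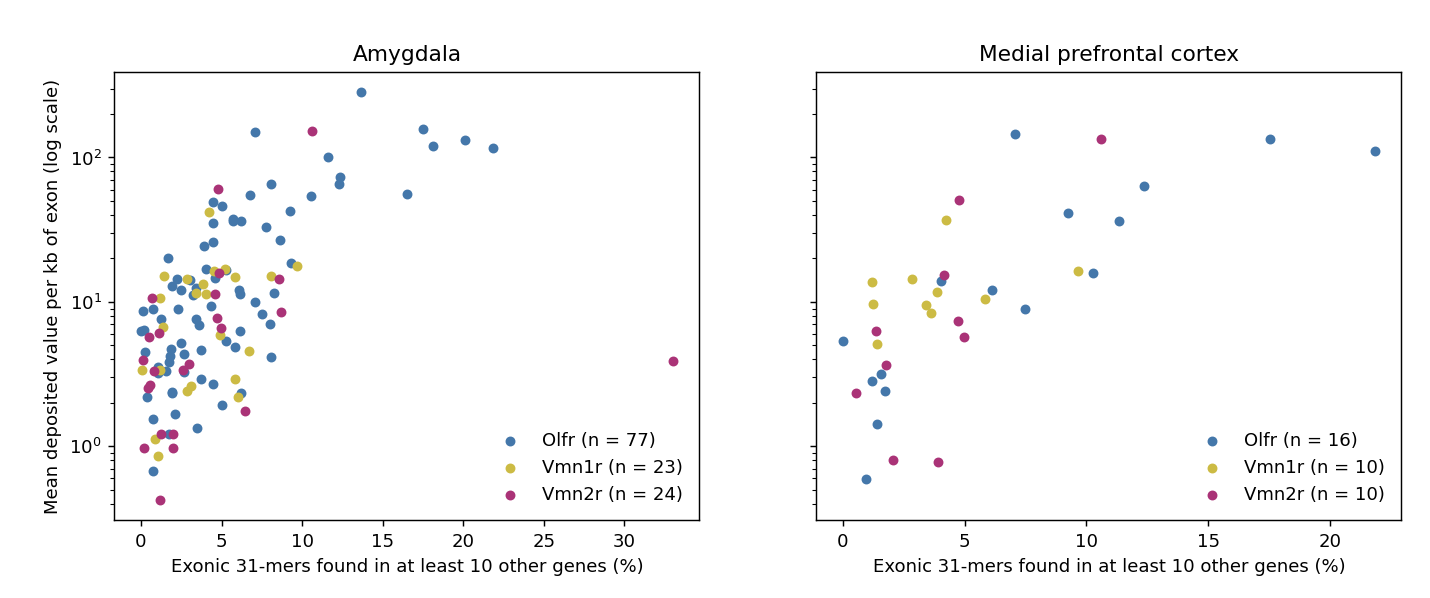
Mean deposited value per kb of exon (y axis, log scale) against the percent of a gene's exonic 31-mers that occur in at least 10 other genes (x axis), 1 point per receptor gene, coloured by class. Genes with a larger shared part tend to lie higher, and Vmn2r29 is the point at 33.0% in the amygdala.

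The 24 genes found in both regions kept nearly the same order by level. Their values per kb in the amygdala and the prefrontal cortex had a Spearman rho of 0.973. They were Olfr45, Olfr46, Olfr90, Olfr365, Olfr472, Olfr775, Olfr859, Olfr986, Olfr1160, Olfr1385, Olfr1459, Vmn1r6, Vmn1r47, Vmn1r58, Vmn1r76, Vmn1r87, Vmn1r88, Vmn1r207-ps, Vmn1r220, Vmn2r24, Vmn2r53, Vmn2r59, Vmn2r108 and Vmn2r114. The regions were normalized apart, so their levels were not tested against each other.

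Of a short list of receptors known from other organs, Olfr90 and Olfr287 had rows, and the list is not complete. Olfr90 averaged 72.9 per kb in the amygdala and 63.5 per kb in prefrontal cortex. Olfr287, whose exons overlap Gm44579 on the same strand by 290 bases, averaged 8.62 per kb in the amygdala.

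The signalling partners of these receptors were measured in part. Of 15 genes of olfactory transduction 6 had a row in the amygdala and 3 in prefrontal cortex, and of 11 genes of vomeronasal transduction 6 and 2 did. Omp, a marker of mature olfactory neurons, ranged from 1.69 to 50.5 over the amygdala libraries, and Trpc2 from 4.52 to 34.7. Both had 0 rows in the prefrontal cortex, as did the channel gene Cnga2 in both regions. The partners that neurons elsewhere in the brain also use were far higher per length, with Gnb1 at 388 per kb, Gnao1 at 366 per kb and Gnai2 at 179 per kb in the amygdala, against 7.69 per kb for Omp and 4.70 per kb for Trpc2. Of 17 genes of receptor trafficking and choice 9 had a row in the amygdala and 4 in prefrontal cortex. Of 87 genes taken by symbol as other chemosensory receptors, Ms4a1 and Ms4a12 alone had a row in the amygdala. The choice by symbol takes the whole Ms4a family and does not show that a gene is such a receptor. Of 44 genes of tissues outside the nervous system Cela1 and Nphs1 alone had a row there, with 0 of either list in the prefrontal cortex.

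Without trauma, receptor genes were lower in Sus-T than in Res-T amygdala libraries in all 3 classes. The summed receptor value was 0.406 and 0.291% of the library in Sus-T, against 0.811, 0.597 and 0.922% in Res-T, and the groups did not overlap. It averaged 0.348 ± 0.0811% in Sus-T (SD, n = 2) and 0.777 ± 0.165% in Res-T (SD, n = 3). Of 124 receptor genes 69 fell and 1 rose at an adjusted p under 0.05 in limma, where 15% of all genes fell and 12.4% rose. The median log2 change was -1.63 over the receptor genes and -0.03 over all genes.

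**Figure D3:**
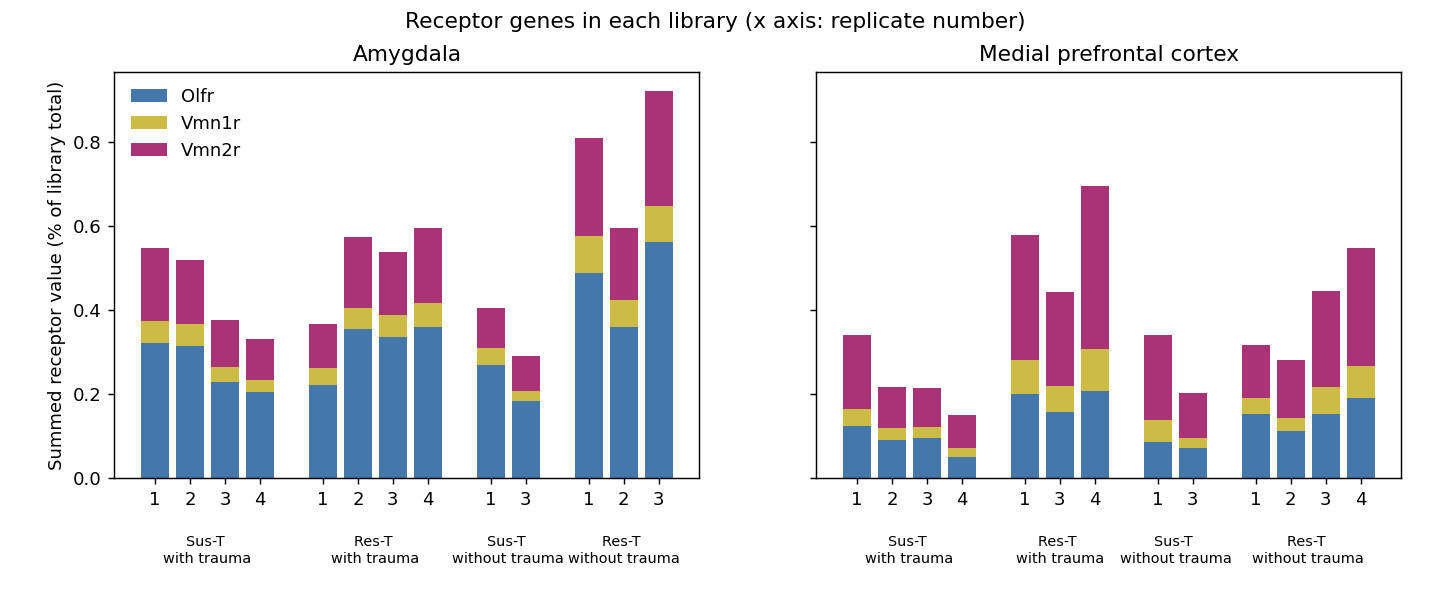
Summed value of the receptor genes as percent of the library total (y axis), 1 bar per library stacked by class and labelled by replicate number (x axis), for 124 genes in the amygdala and 36 in prefrontal cortex. Both amygdala Sus-T libraries without trauma, at 0.406 and 0.291%, lie below the 3 Res-T libraries without trauma.

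The classes had similar medians. Of 77 Olfr genes 45 fell (median log2 -1.66), of 23 Vmn1r genes 13 fell (-1.59), and of 24 Vmn2r genes 11 fell and 1 rose (-1.57). In 98 of the 124 genes both Sus-T libraries lay below all Res-T libraries, which is 79.0%, against 31.3% of all genes. The changes of the genes that fell ran from -0.85 in Olfr1385 to -3.67 in Olfr1191-ps1.

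Olfr635, the receptor gene with the smallest p, had deposited values of 117 and 124 in Sus-T, against 563, 472 and 781 in Res-T without trauma. The groups did not overlap, and the log2 change was -2.29 ± 0.31 (SE, adjusted p = 6.5e-05 in limma). Vmn2r53 had 1450 and 1646 in Sus-T, against 5419, 4289 and 6611 in Res-T (log2 -1.79 ± 0.30, adjusted p = 0.00031). Every Res-T library of Vmn2r53 lay above both Sus-T libraries as well.

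Vmn1r76, a type 1 vomeronasal receptor, had 105 and 142 in Sus-T, against 683, 476 and 719 in Res-T (log2 -2.32 ± 0.38, adjusted p = 0.00025). Olfr1191-ps1, whose symbol marks a pseudogene although GENCODE gives it a coding sequence, had 5.09 and 15.5 in Sus-T, against 148, 105 and 132 in Res-T. Its log2 change was -3.67 ± 0.56 (adjusted p = 0.00017). In both genes the groups lay far apart, and the Sus-T libraries of Olfr1191-ps1 also differed from each other.

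Further genes that fell strongly were Vmn1r207-ps (log2 -3.53 ± 0.59), Vmn2r89 (-3.22 ± 0.56), Olfr767 (-3.15 ± 0.60), Vmn2r97 (-3.06 ± 0.58), Olfr607 (-3.00 ± 0.63), Olfr393 (-2.92 ± 0.47), Olfr1120 (-2.77 ± 0.64) and Olfr351 (-2.73 ± 0.55). Of the genes with high values, Vmn2r114 changed by -1.61 ± 0.33, Olfr839-ps1 by -1.79 ± 0.40, Olfr1307 by -1.69 ± 0.32, Olfr1247 by -1.91 ± 0.30 and Olfr639, which overlaps Olfr643, by -1.44 ± 0.40. Olfr774 had 212 and 167 in Sus-T, against 646, 497 and 803 in Res-T. Its groups did not overlap either, and its log2 change was -1.75 ± 0.40 (adjusted p = 0.0038).

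The other Olfr genes that fell were Olfr63, Olfr161, Olfr338, Olfr344, Olfr365, Olfr374, Olfr432, Olfr509, Olfr539, Olfr571, Olfr613, Olfr624, Olfr715, Olfr715b, Olfr735, Olfr775, Olfr784, Olfr975, Olfr1122, Olfr1160, Olfr1220, Olfr1238, Olfr1250, Olfr1260, Olfr1265, Olfr1330, Olfr1336, Olfr1356, Olfr1372-ps1, Olfr1388, Olfr1416 and Olfr1459. The other Vmn1r genes that fell were Vmn1r9, Vmn1r18, Vmn1r43, Vmn1r47, Vmn1r58, Vmn1r72, Vmn1r88, Vmn1r203, Vmn1r213, Vmn1r224 and Vmn1r229, and the other Vmn2r genes Vmn2r24, Vmn2r60, Vmn2r73, Vmn2r75, Vmn2r92, Vmn2r115 and Vmn2r116. Their changes ran from -0.99 in Olfr539 to -2.71 in Vmn1r203.

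Olfr46 did not follow the rest. It had 1988 and 637 in Sus-T, against 669, 575 and 1636 in Res-T without trauma. The groups overlapped, each with 1 library far above the others, and the log2 change of 0.39 ± 0.53 did not pass (adjusted p = 0.63). Besides Olfr46, the genes with a change above 0 that did not pass were Vmn2r29 (1.27), Olfr671 (0.90), Olfr287 (0.70), Vmn1r217 (0.61), Vmn2r59 (0.27), Olfr1226 (0.05) and Vmn1r233 (0.04).

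Vmn2r66, a type 2 vomeronasal receptor on chromosome 7 (84985366 to 85012268, minus strand), was the receptor gene that rose. It had 173 and 122 in Sus-T, against 73.2, 54.0 and 66.3 in Res-T without trauma. The groups did not overlap, and the log2 change was 1.17 ± 0.32 (adjusted p = 0.011). Of its exonic 31-mers 0.683% occurred in at least 10 other genes, against 4.78% for Vmn2r114 and 11.6% for Olfr1247.

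Promoter sequences of these 3 genes are shown because Vmn2r66 moved against Vmn2r114 and Olfr1247. They cover 250 bases before to 50 bases after the RefSeq start on GRCm38.p6, at chr7:85011971-85012270 for Vmn2r66, chr17:23312264-23312563 for Vmn2r114 and chr2:89610104-89610403 for Olfr1247, all on the minus strand. Capitals mark the letters TAATTA, the core bound by many homeodomain factors, among them regulators of olfactory receptor choice.
Vmn2r66: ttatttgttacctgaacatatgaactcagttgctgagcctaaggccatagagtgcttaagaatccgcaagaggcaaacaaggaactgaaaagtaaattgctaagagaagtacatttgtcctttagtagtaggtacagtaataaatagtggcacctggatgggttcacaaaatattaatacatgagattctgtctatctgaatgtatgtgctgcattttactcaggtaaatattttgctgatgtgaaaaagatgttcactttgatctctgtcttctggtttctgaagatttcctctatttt
Vmn2r114: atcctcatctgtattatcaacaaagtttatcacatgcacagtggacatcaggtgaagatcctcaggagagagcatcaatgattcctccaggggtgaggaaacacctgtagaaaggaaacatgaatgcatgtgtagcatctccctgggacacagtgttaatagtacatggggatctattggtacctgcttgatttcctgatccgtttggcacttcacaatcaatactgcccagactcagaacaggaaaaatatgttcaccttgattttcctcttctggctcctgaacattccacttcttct
Olfr1247: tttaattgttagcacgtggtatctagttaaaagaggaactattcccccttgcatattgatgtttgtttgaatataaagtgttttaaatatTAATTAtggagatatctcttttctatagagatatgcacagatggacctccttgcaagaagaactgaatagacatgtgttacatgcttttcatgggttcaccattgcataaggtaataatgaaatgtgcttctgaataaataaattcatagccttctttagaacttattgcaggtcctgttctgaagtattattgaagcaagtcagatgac
The core stood in the Olfr1247 window once and in the other windows 0 times. The RefSeq start lay 248 bases from the GENCODE start in Vmn2r66, 224 in Vmn2r114 and 3977 in Olfr1247, so the last window may not be the start used in the authors' annotation. RefSeq held a promoter for 118 of the 136 receptor genes. In 26 measured receptor genes its start lay within 300 bases of the GENCODE start, so most windows may not be at the start used in the authors' annotation. TAATTA, on either strand, occurred in 16.8% of 119 promoters of measured receptor genes and in 16.6% of 1270 promoters of annotated ones, against 5.29% of all 32851 promoters. CCCNNGGG, the core of Olf1/Ebf factors, occurred in 5.04% and 4.17%, against 13.7% of all promoters. In these RefSeq windows the measured genes thus had nearly the same shares as the annotated families.

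Olfactory transduction genes did not follow the receptors in 1 direction in this comparison. Omp averaged 6.19 ± 0.0409 in Sus-T (SD, n = 2) and 42.4 ± 7.82 in Res-T (SD, n = 3) and fell (log2 -2.58 ± 0.67, adjusted p = 0.0084), and Trpc2, the cation channel of vomeronasal neurons, fell too (-2.24 ± 0.66, adjusted p = 0.018). Gnal rose by 2.75 ± 0.71 (adjusted p = 0.0089) and Gnb1 by 1.13 ± 0.18. Of the 6 olfactory transduction genes 2 rose and 2 fell, of the 6 vomeronasal ones 2 rose and 1 fell, and of the 9 genes of receptor trafficking and choice 2 rose and 2 fell.

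Oligodendrocyte markers moved with the receptor genes. Their sum was 1.79 and 2.63% of the library in Sus-T, against 5.66, 6.52 and 5.56% in Res-T without trauma, with 10 of 12 markers lower, 0 higher and a median log2 change of -1.98. Endothelial markers were lower in 1 of 3 (median -0.92). Markers of other cell types went the other way, with 3 of 3 pyramidal neuron markers (median 3.17), 5 of 7 astrocyte markers (median 1.29) and 3 of 3 microglia markers (median 1.65) higher. The astrocyte markers summed to 1.36 ± 0.571% in Sus-T (SD, n = 2) and 0.325 ± 0.0786% in Res-T (SD, n = 3). Their part in the receptor result was not tested, and in these bulk libraries fewer cells of a type and less RNA per cell cannot be told apart. With the mean of the oligodendrocyte markers as a covariate, a setting chosen after seeing the data, limma called 0 receptor genes. It called 95 of all genes, against 2706 without the covariate, while the receptor median was -1.27. The marker sums did not overlap between these groups, so this fit cannot tell the covariate from the group.

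Genes that share single features with the receptors are given for comparison, and their difference from the receptors was not tested. Of 191 genes without coding sequence 28 fell and 6 rose (median log2 -0.51). Of 246 other genes with more than 5% of their 31-mers in at least 10 other genes 44 fell and 26 rose (median -0.24). Without Sus-T replicate 1 the count of receptor genes was 44, all lower, in a fit that takes the spread of the lone library from the other groups.

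**Figure D4:**
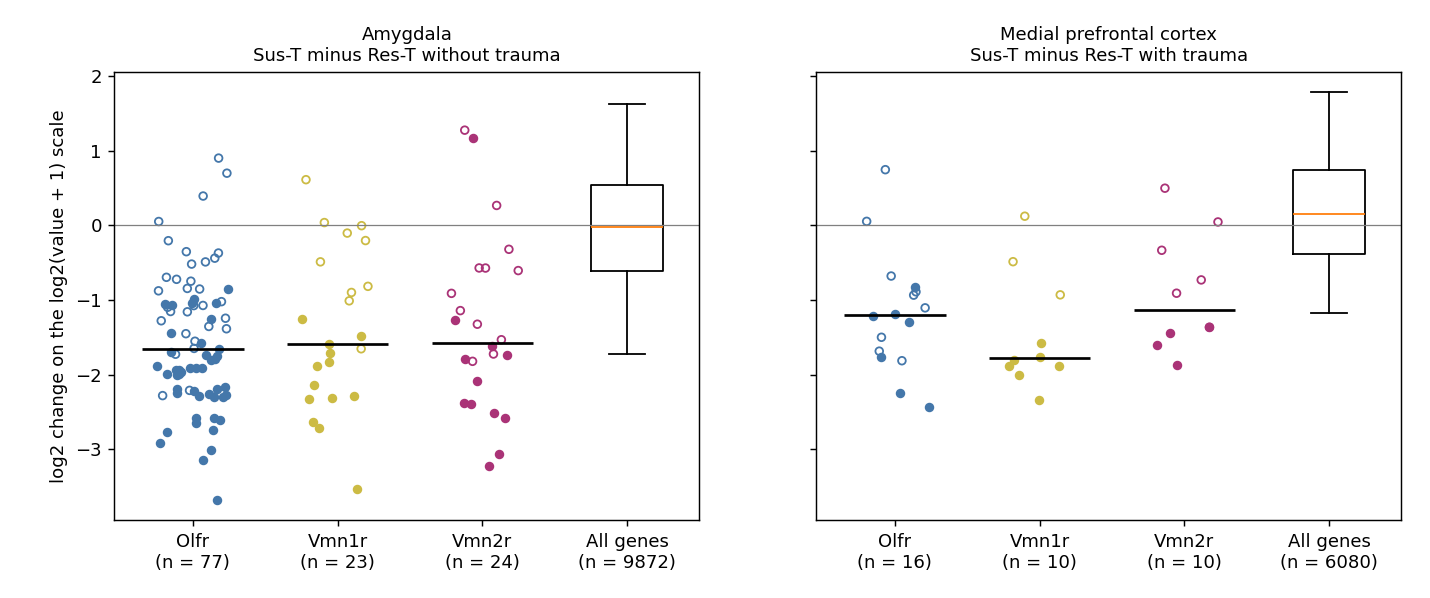
Log2 change of each receptor gene (y axis) by class, for Sus-T minus Res-T without trauma in the amygdala and with trauma in the prefrontal cortex, with filled points past the adjusted p threshold, open points not past it and a line at the class median. The box of all genes spans the quartiles with whiskers at the 5th and 95th percentiles, and the class medians of -1.66, -1.59 and -1.57 in the amygdala lie below its lower quartile of -0.61.

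With trauma, no receptor gene passed between Sus-T and Res-T amygdala libraries. The summed receptor value was 0.549, 0.521, 0.377 and 0.333% in Sus-T, against 0.368, 0.575, 0.539 and 0.596% in Res-T, and the groups overlapped. In limma 0 of 124 receptor genes passed, as did 0% of all genes. The count was also 0 under each of the other settings tried. The receptor median log2 change was -0.22, against 0.01 over all genes, and 82 of 124 receptor changes were negative. Olfr90 had the smallest p, with a mean of 167 ± 48.1 in Sus-T and 248 ± 29.95 in Res-T (SD, n = 4 each; log2 -0.60 ± 0.20, adjusted p = 0.24 in limma).

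In Res-T amygdala libraries most receptor genes changed downward with trauma, and few passed. The summed value was 0.368, 0.575, 0.539 and 0.596% with trauma, against 0.811, 0.597 and 0.922% without, so the groups lay apart by a narrow margin. Of 124 receptor genes 6 fell and 1 rose, against 2.88% and 3.30% of all genes, so the calls alone do not set the receptors apart. Of the receptor changes 121 were negative, with a median log2 change of -0.80, against -0.045 over all genes. In 61 receptor genes (49.2%) all libraries with trauma lay below all without, against 13.5% of all genes. Those that fell were Olfr1372-ps1 (log2 -1.07 ± 0.22), Olfr635 (-1.10 ± 0.26), Olfr338 (-1.16 ± 0.28), Vmn1r76 (-1.18 ± 0.31), Vmn2r89 (-1.74 ± 0.47) and Olfr1250 (-1.01 ± 0.28).

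Vmn2r66 rose in Res-T libraries with trauma. It had 107, 140, 156 and 130 with trauma, against 73.2, 54.0 and 66.3 without, and the groups did not overlap (log2 1.03 ± 0.27, adjusted p = 0.029). Omp changed by -2.30 ± 0.56 and Trpc2 by -2.28 ± 0.55, and both fell (adjusted p = 0.023 each). Oligodendrocyte markers summed to 4.80 ± 0.497% with trauma (SD, n = 4) and 5.91 ± 0.527% without (SD, n = 3). Of the 12 markers 0 passed, while 12 had a negative change (median log2 -0.50) and 7 an unadjusted p under 0.05 in limma. Of 3 pyramidal neuron markers 2 rose (median 1.78), and the part of these markers in the receptor result was not tested. With the mean of the oligodendrocyte markers as a covariate 7 receptor genes passed, all lower, and the receptor median was -0.76. That fit called 678 of all genes, against 610 without the covariate. The marker sums did not overlap between these groups, so this fit cannot tell the covariate from the group. The count of 7 receptor genes was 0 without Res-T replicate 1 or 3 of the group without trauma, 1 without its replicate 2 or without Res-T replicate 3 with trauma, and 4 without Res-T replicate 1 with trauma. It was 13 without Res-T replicate 4 or Sus-T replicate 1 or 2 of the groups with trauma. The total over all genes moved too, from 610 to 101, 142 and 163 without Res-T replicate 1, 2 or 3 without trauma. It was 322 and 408 without Res-T replicates 3 and 1 with trauma, and 708 to 724 in the fits with 13.

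In Sus-T amygdala libraries trauma gave no called receptor gene. The summed value was 0.549, 0.521, 0.377 and 0.333% with trauma, against 0.406 and 0.291% without, and the groups overlapped. In limma 0 of 124 receptor genes passed, against 0.0304% of all genes. The receptor median log2 change was 0.37, against -0.006 over all genes. Oligodendrocyte markers summed to 4.14 ± 0.561% with trauma (SD, n = 4) and 2.21 ± 0.598% without (SD, n = 2), with 1 of 12 past the threshold, 12 above 0 (median 1.16) and 10 at an unadjusted p under 0.05 in limma, and their part was not tested. In 34 receptor genes all libraries with trauma lay above both without, against 12.6% of all genes. Olfr393 had the smallest p, with a mean of 56.8 ± 16.6 with trauma (SD, n = 4) and 18.6 ± 12.7 without (SD, n = 2; log2 1.69 ± 0.45, adjusted p = 0.11 in limma). Without Sus-T replicate 3 of the group without trauma the count was 8, all higher, in a fit that takes the spread of the lone library from the other groups.

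The trauma change of receptor genes was higher in Sus-T than in Res-T amygdala libraries. For this difference 24 receptor genes passed, all higher, against 4.76% of all genes higher and 1.98% lower, and the receptor median was 1.43 on the log2 scale. The largest differences that passed were in Olfr1459 (4.32 ± 1.15), Vmn2r97 (3.52 ± 0.73), Vmn1r9 (3.50 ± 0.98), Olfr607 (3.46 ± 0.80) and Olfr1220 (3.03 ± 0.71). The other genes were Olfr344, Olfr374, Olfr393, Olfr613, Olfr635, Olfr735, Olfr767, Olfr839-ps1, Olfr1191-ps1, Olfr1247, Olfr1250, Olfr1307, Vmn1r72, Vmn1r76, Vmn1r203, Vmn1r207-ps, Vmn2r53, Vmn2r89 and Vmn2r114. In Sus-T libraries with trauma the spread exceeded the mean in Olfr1459 (103 ± 148) and Vmn1r9 (38.5 ± 45.8, SD, n = 4 each). Their differences thus rest on libraries that varied widely. In Vmn2r97, Olfr607 and Olfr1220 the SD of that group lay below the mean.

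Vmn2r97 shows the 4 groups. It had 164, 128, 60.5 and 34.1 in trauma Sus-T libraries and 54.9, 56.5, 54.4 and 71.6 in trauma Res-T libraries. Without trauma it had 9.17 and 39.6 in Sus-T, against 177, 150 and 181 in Res-T. The Sus-T libraries without trauma were low and the Res-T libraries without trauma high, while the groups with trauma overlapped. This comparison shares all its libraries with the comparisons above, and the Res-T libraries without trauma that stand apart enter it. Without Sus-T replicate 1 of the group without trauma the count was 0, and without replicate 1, 2 or 3 of Res-T without trauma it was 10, 15 or 9. In these Res-T fits 340, 340 or 379 of all genes passed, against 665 with every library. Oligodendrocyte markers moved alike, with 10 of 12 higher (median 1.73), and their part was not tested. With their mean as a covariate 0 receptor genes passed and 2 of all genes, against 665 without it, while the receptor median was 1.16. The markers moved with the groups, so this fit cannot tell the covariate from the groups.

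**Figure D5:**
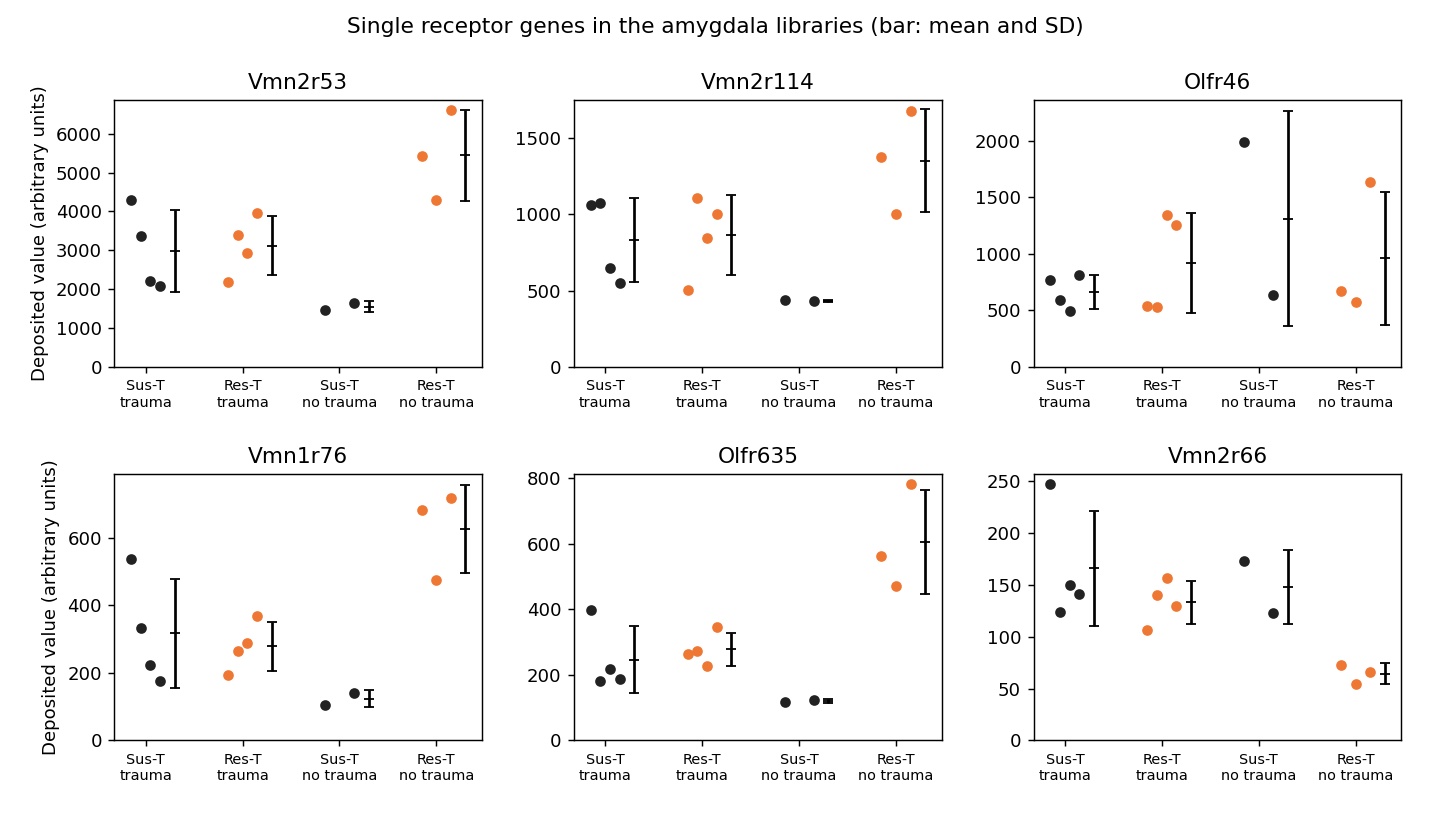
Deposited value in arbitrary units (y axis) of 6 receptor genes in each amygdala library, by group (x axis), with the mean and SD beside the points. Vmn2r66 is lowest in Res-T without trauma, at 54.0 to 73.2, where Vmn2r53, Vmn2r114, Vmn1r76 and Olfr635 have their highest means, and Olfr46 overlaps among all groups.

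In the prefrontal cortex, receptor genes were lower in Sus-T than in Res-T libraries with trauma. The summed receptor value was 0.342, 0.217, 0.215 and 0.151% of the library in Sus-T, against 0.580, 0.445 and 0.697% in Res-T, and the groups did not overlap. Of 36 receptor genes 18 fell and 0 rose in limma, where 8.93% of all genes fell and 14% rose. The median log2 change was -1.33 over receptor genes and 0.15 over all genes. By class 7 of 16 Olfr (median -1.20), 7 of 10 Vmn1r (-1.78) and 4 of 10 Vmn2r genes (-1.13) fell. In 24 receptor genes, or 66.7%, all Sus-T libraries lay below all Res-T libraries, against 16.3% of all genes.

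Vmn1r55, which overlaps Gm47692 by 66 bases, had the smallest p. Its values were 86.5, 96.7, 71.2 and 59.1 in Sus-T, against 252, 227 and 319 in Res-T with trauma (log2 -1.76 ± 0.28, adjusted p = 0.0017). Vmn2r114 had 572, 334, 257 and 327 in Sus-T, against 1301, 1067 and 1600 in Res-T (log2 -1.87 ± 0.34, adjusted p = 0.0027). In both genes the lowest Res-T library lay above the highest Sus-T library.

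Vmn1r220 had 45.2, 46.8, 22.7 and 25.6 in Sus-T, against 189, 136 and 200 in Res-T with trauma (log2 -2.33 ± 0.43, adjusted p = 0.0027). Vmn2r53 had 2673, 1447, 1326 and 1256 in Sus-T, against 4701, 3881 and 6251 in Res-T (log2 -1.60 ± 0.35, adjusted p = 0.0057). The groups did not overlap in these genes either, although Sus-T replicate 1 of Vmn2r53 stood well above the other Sus-T libraries.

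The other genes that fell were Olfr45 (log2 -2.43 ± 0.55), Olfr365 (-2.25 ± 0.58), Vmn1r236 (-2.005 ± 0.649), Vmn1r76 (-1.89 ± 0.56), Vmn1r207-ps (-1.88 ± 0.65), Vmn1r88 (-1.80 ± 0.49), Olfr204 (-1.76 ± 0.54), Vmn1r87 (-1.58 ± 0.49), Vmn2r120 (-1.45 ± 0.46), Vmn2r90 (-1.35 ± 0.42), Olfr90 (-1.30 ± 0.40), Olfr1385 (-1.22 ± 0.27), Olfr986 (-1.19 ± 0.28) and Olfr46 (-0.83 ± 0.28). Olfr46, which did not pass in the amygdala, had 843, 459, 747 and 414 in Sus-T, against 1107, 1113 and 931 in Res-T with trauma. Its groups lay apart by a narrow margin (adjusted p = 0.037).

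Markers of oligodendrocytes moved with the receptors here too. Their sum was 2.35, 2.58, 2.52 and 4.10% of the library in Sus-T, against 5.99, 6.76 and 4.74% in Res-T with trauma, and 5 of 8 markers fell. With their mean as a covariate 0 receptor genes passed and 0 of all genes, against 1397 without it, and the receptor median was -0.93. The marker sums did not overlap between these groups either, so covariate and group cannot be told apart in this fit. Among the partners of the receptors Pde1c fell (-1.60 ± 0.39) and Gnb1 rose (1.33 ± 0.23), and of 97 other genes without coding sequence 30 fell and 4 rose (median -0.73). The count of 18 receptor genes was 8, 11 or 7 without Res-T replicate 1, 3 or 4 with trauma. Over all genes 624, 924 or 669 passed in these fits, against 1397. Of the libraries left out, replicate 1 is the one with the weight of 0.731 in the missing dimensions.

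No receptor gene passed in the other 4 prefrontal comparisons, and 0% of all genes did. Between Sus-T and Res-T without trauma the summed value was 0.341 and 0.204% in Sus-T, against 0.318, 0.281, 0.447 and 0.549% in Res-T, with overlap. The receptor median log2 change was -0.61, against 0.065 over all genes. In 11 receptor genes the Sus-T libraries lay below all Res-T libraries, against 6.74% of all genes. Olfr46 had the smallest p, with 292 and 564 in Sus-T, against 1484, 1227, 905 and 1165 in Res-T (log2 -1.53 ± 0.31, adjusted p = 0.080).

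For trauma in Sus-T prefrontal libraries the median log2 change of the receptor genes was 0.20, against 0.009 over all genes. Of the receptor changes 23 lay above 0 and 13 below, and Olfr46 had the smallest p (0.54 ± 0.31). In Res-T the receptor median was 0.63, against -0.042 over all genes, and Vmn1r207-ps had the smallest p (1.90 ± 0.65, adjusted p = 0.22 in limma). Here 3 of 36 receptor genes were called without Res-T replicate 4 of the group without trauma, as were 588 of all 6080 genes. That library had the highest oligodendrocyte sum of the prefrontal libraries, at 7.89%, and a receptor sum of 0.549%. For the difference between the trauma changes the receptor median was -0.32, against 0.115 over all genes. Vmn2r114 had the smallest p (-1.46 ± 0.52, adjusted p = 0.77 in limma).

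The genes of both regions can be set side by side. Of the 24, 13 fell in Sus-T amygdala libraries without trauma and 13 in Sus-T prefrontal libraries with trauma, and 7 were among both, where 15% and 8.93% of all genes fell. These were Olfr365, Olfr1385, Vmn1r76, Vmn1r88, Vmn1r207-ps, Vmn2r53 and Vmn2r114. The change was negative in both for 20 of the 24. With most of the 24 negative in each region, no likeness between the regions is read from the 7 or the 20. The labels do not say whether libraries of the regions came from the same mice.

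The spread between libraries of a group was wider for receptor genes than for all genes by the median. The median SD on the log2 scale was 0.578 for receptor genes and 0.338 for all genes in Sus-T amygdala with trauma, 0.622 and 0.384 in its Res-T counterpart, 0.572 and 0.267 in Sus-T without trauma, and 0.281 and 0.235 in Res-T without trauma. In the prefrontal cortex the trauma libraries had 0.546 for receptor genes and 0.384 for all genes in Sus-T, against 0.278 and 0.241 in Res-T. Libraries without trauma had 0.719 and 0.310 in Sus-T, against 0.706 and 0.489 in Res-T. Of the 124 amygdala receptor genes 49 had their highest value in Res-T without trauma replicate 3, 25 in its replicate 1 and 7 in its replicate 2, while of the 36 prefrontal genes 13 were highest in Res-T with trauma replicate 4.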

How the data were processed

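The authors deposited normalized signal values per gene, in arbitrary units, by a method not given in the sources used here. The submitters' processing notes name bcl2fastq 2.20, Salmon 1.2 and GRCm38.p6, with no order or setting. Library values were identical wherever a table repeated them, and 3 of the 29 samples had no column and were not analysed here. All genes of a region were fitted with limma 3.58.1 in R 4.3.3 on log2(value + 1), with 4 group means, trend and robust moderation and 9 residual degrees of freedom, and Benjamini-Hochberg adjusted p-values, over every gene tested in each of 5 contrasts, had a threshold of 0.05. The fit was checked on simulated data with independent noise in each library. These data lack the missing dimensions of the real libraries, so the check cannot show how those affect the p-values. Symbols, exons and transcripts came from GENCODE M21 and promoters from RefSeq. The members and lists were chosen with earlier results of these data known. Named were genes called in a contrast, the highest and lowest, those in both regions, those overlapping another gene, the smallest p where none passed, and receptors known from other organs. Alternatives were quantile normalization, no pseudocount, a mean of at least 10, a replicate block, leaving out each library and, added later, an oligodendrocyte covariate. Depth is unknown, so no interval from counts is given.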

Additional observations from a re-analysis of the deposited data

Results flagged for a closer look

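Among 62 sets of values from groups of 4 libraries, 3 held a library far from the rest of its group. Chance marks about 1 in 20 such sets. In Res-T amygdala libraries with trauma the summed Olfr value of replicate 1 was 0.223% of the library, where the other 3 lay between 0.338 and 0.361%. Vmn2r97 was 71.6 in replicate 4 of Res-T amygdala with trauma, where the others lay between 54.4 and 56.5. Vmn2r53 was 2673 in replicate 1 of Sus-T prefrontal cortex with trauma, where the others lay between 1256 and 1447.

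The trauma change in the amygdala differed between Sus-T and Res-T, by limma's test of the difference itself, in 24 receptor genes, all higher, against 4.76% of all genes higher and 1.98% lower. On the log2 scale, as the trauma change in Sus-T minus that in Res-T, the differences were Olfr1307 (1.51), Olfr1247 (1.53), Vmn2r114 (1.55), Vmn2r53 (1.70), Olfr344 (1.73), Olfr839-ps1 (1.75), Vmn1r72 (1.92), Olfr735 (1.94), Olfr635 (2.06), Olfr1250 (2.19), Olfr613 (2.30), Olfr374 (2.41), Vmn1r76 (2.42), Olfr393 (2.47), Vmn1r207-ps (2.55), Vmn1r203 (2.58), Vmn2r89 (2.70), Olfr1191-ps1 (2.77), Olfr767 (2.91), Olfr1220 (3.03), Olfr607 (3.46), Vmn1r9 (3.50), Vmn2r97 (3.52), Olfr1459 (4.32). When Sus-T replicate 1 of the libraries without trauma was left out, 0 receptor genes and 59 of all genes passed.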

How the results depend on the processing

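Quantile normalization, no pseudocount and a mean of at least 10 left each count of called receptor genes within 1.5 times its value, and no called gene changed sign under them, the replicate block or the omission of a library. With the replicate block 15 receptor genes passed for the difference between the amygdala trauma changes, against 24, and 9 in the prefrontal comparison of Sus-T and Res-T with trauma, against 18. Libraries of equal number did not all deviate together (correlations of -0.446 to 0.159 over 16 amygdala pairs and -0.395 to 0.346 over 16 prefrontal pairs), with 3 pairs over 0.1 in each region, so the numbers were not taken to pair libraries, which does not show that no libraries share an animal. With the oligodendrocyte covariate 0 receptor genes passed in the amygdala comparison without trauma, for the difference between trauma changes, and in the prefrontal comparison with trauma, against 70, 24 and 18. Under it 95, 2 and 0 of all genes passed, against 2706, 665 and 1397, and the receptor medians were -1.27, 1.16 and -0.93. For trauma in Res-T amygdala libraries 7 receptor genes passed under it, all lower, with 678 of all genes, against 7 and 610. The markers moved with the groups in these comparisons, so covariate and group cannot be told apart. The cause was not tested. Leaving out 1 library gave 44 to 79 receptor genes for Sus-T against Res-T amygdala without trauma, 0 to 8 for trauma in Sus-T, 0 to 13 for trauma in Res-T and 0 to 33 for the difference between them. In the prefrontal cortex it gave 7 to 18 for Sus-T against Res-T with trauma, 0 to 2 without trauma and 0 to 3 for trauma in Res-T. It stayed at 0 for Sus-T against Res-T amygdala with trauma, for trauma in Sus-T prefrontal libraries and for the prefrontal difference between trauma changes.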
